A study of Rattus norvegicus with 7 samples.

Results

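The nuclear-encoded genes of the mitochondrial respiratory chain and ATP synthase were followed in primary rat hippocampal cultures exposed to grape seed extract, which contains many plant polyphenols. The members were probe sets that are not array controls and carry a single gene symbol starting with Nduf, Sdh, Uqcr, Cox4 to Cox8 or Atp5, with Cycs added. Each gene was represented by its brightest probe set, the one with the highest mean log2 signal over the 7 arrays. This gave 55 genes from 101 probe sets, among 4736 genes with a single symbol on the array. They comprised 27 genes of complex I, 2 of complex II, 3 of complex III, 13 of complex IV and 10 of complex V. A further 7 probe sets of the family carried several symbols and were left out, and cytochrome c (Cycs), the electron carrier between complexes III and IV, was among them. The symbol rule also took in genes that are not subunits, such as Sdhaf2 and Ndufaf3, which act in the assembly of complexes II and I, and Atp5if1, the inhibitor of ATP synthase. Ndufa4 and its relative Ndufa4l2 are counted with complex I by their symbols, although NDUFA4 is known as a subunit of complex IV.

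The cultures came from Wistar rats whose age is labelled as 17 days, without saying whether before or after birth. Hippocampal neurons received 0, 1 or 10 µg/ml of the extract for 24 h and hippocampal astrocytes 0, 1, 10 or 100 µg/ml, all in a medium with glutamine and N1 supplement. Each cell type and dose was measured on 1 array, 7 in all, so a change between single arrays has a size but no error and no test. Whether the arrays of a cell type came from separate cultures is not stated, so p-values measure only the spread between these arrays.

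The respiratory chain passes electrons from NADH (complex I) and succinate (complex II) to complex III and then to complex IV, which reduces oxygen. The proton gradient built on the way drives ATP synthase, complex V. Neurons are known to depend strongly on this pathway for ATP, while astrocytes make more use of glycolysis. Nuclear genes for these subunits are known for promoters with sites of the transcription factors NRF1, GABP (an ETS factor) and YY1.

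These motifs were searched in the RefSeq promoters of the members, 250 bases before to 50 after the start of a transcript in build GRCr8, on both strands. Of the 55 members, 47 matched a promoter of the table. The YY1 motif AAGATGGCG was in 7 of these 47 promoters (14.9%), against 1.73% of 33469 promoters of the same length. In 6 of the 7 it began 5 to 24 bases after the start, and in all 7 it read in the direction of the gene. The motif contains the letters ATG, and whether these matches lie over the start codon of the protein was not tested. The ETS motif CCGGAAG was in 10 of 47 (21.3%) against 8.75% of all, and the NRF1 motif GCGCATGCG in 1 of 47 (2.13%), the promoter of Atp5po, against 1.52% of all. Ndufa6 and Atp5pf held both a YY1 and an ETS match, without overlap. The members' promoters had a median GC content of 56% and 20 CG pairs, against 51.7% and 7 over all promoters, and the counts of matches were not adjusted for that. A match describes letters in the window and is not evidence of binding.

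The windows below run from 70 bases before the start to 30 bases after it, 5′ to 3′ along the gene, with motif letters in capitals. The first group is shown for the YY1 match at a similar place in 5 complex I promoters. They are Ndufa6 (chr7:115750288-115750387, minus strand), Ndufs4 (chr2:47794885-47794984, minus), Ndufs7 (chr7:10110469-10110568, minus), Ndufa9 (chr4:161374141-161374240, minus) and Ndufb8 (chr1:253362907-253363006, minus).
Ndufa6: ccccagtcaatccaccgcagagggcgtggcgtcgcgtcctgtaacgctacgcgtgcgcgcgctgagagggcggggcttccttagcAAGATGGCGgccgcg
Ndufs4: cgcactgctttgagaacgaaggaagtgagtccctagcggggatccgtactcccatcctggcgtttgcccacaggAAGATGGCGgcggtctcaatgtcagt
Ndufs7: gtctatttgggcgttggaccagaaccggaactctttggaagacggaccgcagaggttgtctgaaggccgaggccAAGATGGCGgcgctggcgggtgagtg
Ndufa9: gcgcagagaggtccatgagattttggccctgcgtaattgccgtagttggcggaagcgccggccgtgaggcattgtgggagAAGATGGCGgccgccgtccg
Ndufb8: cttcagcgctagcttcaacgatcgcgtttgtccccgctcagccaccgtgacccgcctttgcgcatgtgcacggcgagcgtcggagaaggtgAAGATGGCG

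The second group is shown because the results below turn on these genes. Cox4i1 (chr19:65630313-65630412, plus strand) and Uqcrc2 (chr1:184599170-184599269, plus) hold ETS matches on the opposite strand, read here as the reverse complement. Ndufv2 (chr9:113157491-113157590, minus) and Atp5f1d (chr7:10214321-10214420, minus) hold none of the 3 motifs.
Cox4i1: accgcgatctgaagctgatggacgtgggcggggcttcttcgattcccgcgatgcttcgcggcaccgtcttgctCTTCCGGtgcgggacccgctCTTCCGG
Uqcrc2: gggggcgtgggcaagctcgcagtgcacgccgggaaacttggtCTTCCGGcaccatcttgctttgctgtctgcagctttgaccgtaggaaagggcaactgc
Ndufv2: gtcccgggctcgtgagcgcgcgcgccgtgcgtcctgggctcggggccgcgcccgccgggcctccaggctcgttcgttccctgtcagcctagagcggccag
Atp5f1d: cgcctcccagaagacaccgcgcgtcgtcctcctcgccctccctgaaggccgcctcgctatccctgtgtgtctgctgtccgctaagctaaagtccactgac

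Signals were scaled by the authors so that the trimmed mean of every array lay between 500.7 and 500.9. The median signal of all probe sets was 84.9 to 88.05 on the neuron arrays and 84.4, 80.15, 73.5 and 65.4 on the astrocyte arrays from 0 to 100 µg/ml. The summed signal of 10 neuronal marker genes was 19746.5 to 20838.4 on the neuron arrays and 975.5 to 1980.5 on the astrocyte arrays, where 5 of them (Nefl, Snap25, Syt1, Nell2 and Gabrb2) lay at the floor on at least 1 array. The sum of 10 astrocytic markers was similar in both, 39923.5 to 41901.5 on neuron arrays and 39327.8 to 45999.1 on astrocyte arrays, with 2 of the 9 tested called higher in neurons and 3 lower. The neuron arrays thus carry signal of astrocytic genes as well. Sums of 7 fibroblast and meningeal markers were 14695.9 to 17173.7 in neurons and 46651.1 to 59635 in astrocytes. Sums of 9 microglial and macrophage markers were 2564.4 to 2851.1 and 6445.6 to 13042.5. Of these markers, Itgam lay at the floor on all 3 neuron arrays and 2 astrocyte arrays, and Csf1r on 2 arrays of each cell type. Sums of 6 oligodendrocyte lineage markers were 2136.6 to 2274 and 8706.6 to 14004.3, with Mog and Mobp at the floor on all 3 neuron arrays, and sums of 4 endothelial markers were 362.2 to 534.5 and 182.5 to 258.5.

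A probe set was compared where its mean log2 signal in a cell type was above the median of all signals (79.9). Of the 55 members, 50 passed in neurons and 49 in astrocytes. Cox6c, a subunit of complex IV, passed through neurons alone, with a mean log2 signal of 6.43 against 6.11 in astrocytes and a limit of 6.32. The dim members that failed in both were Ndufs1 (signals 3 to 49.5), Cox5a (7.8 to 55.8), Cox8b (17.3 to 50.1), Cox6c-ps1 (2.7 to 10.9, at the floor on all 7 arrays) and Ndufa4l2 (34.8 to 86.4). Cox6c lay just inside the limit and Ndufa4l2 just outside it.

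The first comparison set neurons against astrocytes over the doses that both received, 3 arrays each. Of 50 members, 16 were higher in neurons and 0 were lower at an adjusted p under 0.05 (limma, Benjamini-Hochberg over 4709 probe sets). Over all probe sets, 25% were called higher and 19.3% lower. The median difference of the members was 0.26 on the log2 scale, against 0.07 over all probe sets, and 44 of 50 members were positive against 55.6% of all. The arrays of the cell types did not overlap for 25 members, all with neurons above, against 32.4% of all probe sets with neurons above and 24.2% with neurons below. The calls came from complex I (9 of 25), complex III (2 of 3), complex IV (3 of 10) and complex V (2 of 10), with 0 of 2 in complex II, where both members had negative differences. Before adjustment, 24 members had a p under 0.05, against 52.5% of all probe sets.

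**Figure D1:**
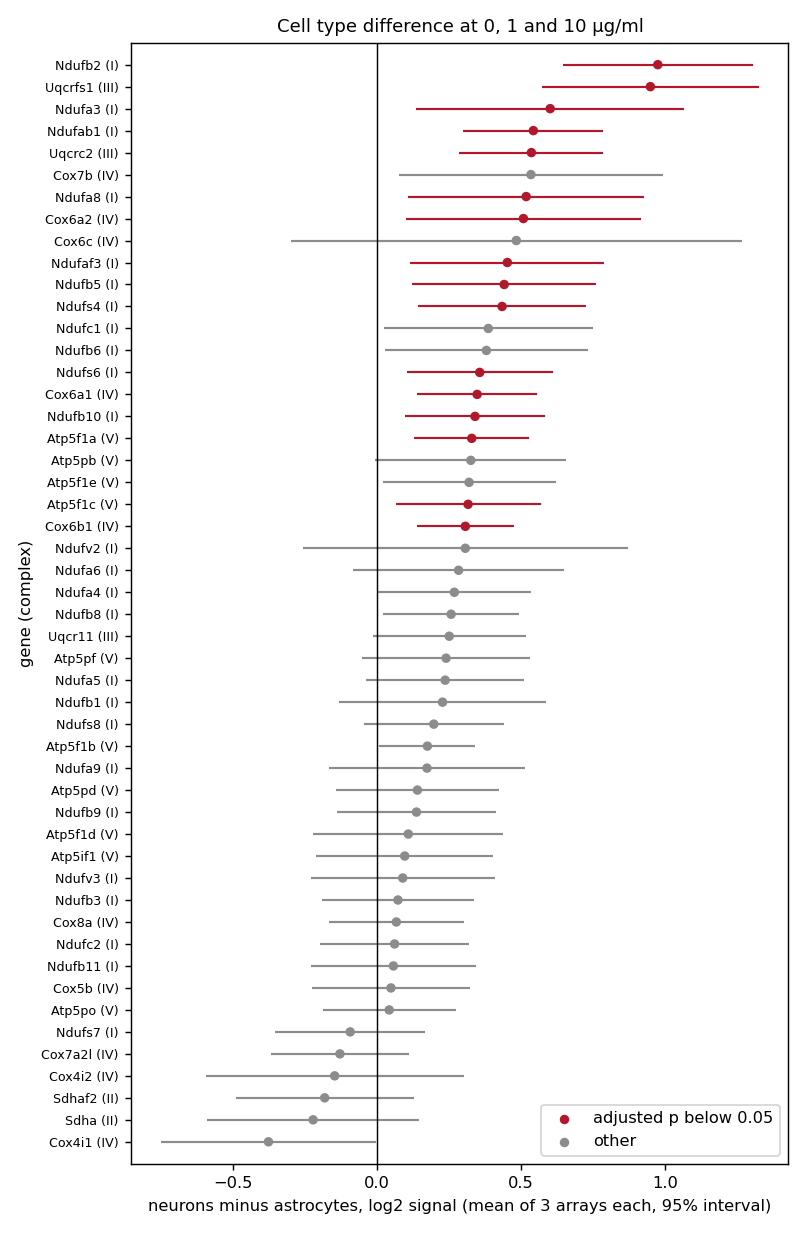
Difference between neurons and astrocytes (log2 signal, x axis) for the 50 respiratory chain genes that passed the filter, with 95% intervals from limma over 3 arrays per cell type at 0, 1 and 10 µg/ml. Red points mark the 16 genes with an adjusted p under 0.05, and 44 of the 50 points lie right of 0, with Ndufb2 and Uqcrfs1 farthest right and Cox4i1 farthest left.

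In complex I, the entry point for electrons from NADH, the largest difference was that of Ndufb2, an accessory subunit of the membrane arm. From 0 to 10 µg/ml its neuron signals were 2683.1, 2920.1 and 3476.0. In astrocytes it was 1758.3, 1329.1, 1531.8 and 1397.0 at 0, 1, 10 and 100 µg/ml, so that every neuron array lay above every astrocyte array. The means over the shared doses were 3026 ± 407 and 1540 ± 215 (SD, n = 3 each), a log2 difference of 0.98 (SE 0.142, adjusted p = 0.0011, limma).

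Ndufab1, the mitochondrial acyl carrier protein that is also a complex I subunit, was 3650.0, 3411.4 and 3702.6 in neurons and 2710.7, 2189.8, 2511.7 and 1812.4 in astrocytes. Again no array overlapped, and the log2 difference was 0.54 (SE 0.104, adjusted p = 0.0042, limma). Ndufa3, an accessory subunit, was 3037.4, 2611.8 and 3339.4 in neurons and 2527.3, 1460.1, 2055.1 and 2076.7 in astrocytes. Its lowest neuron array lay just above its highest astrocyte array, and the difference of 0.60 had an SE of 0.200 (adjusted p = 0.0428, limma). Ndufa8, a further accessory subunit, was 1168.7, 1061.8 and 1183.1 in neurons and 1021.9, 768.6, 636.6 and 870.6 in astrocytes, a difference of 0.52 (adjusted p = 0.0456, limma). The untreated astrocyte array was the closest to the neurons for both genes. The call ended under 8 of 15 alternatives for Ndufa3 and 10 of 15 for Ndufa8, quantile normalization among those for Ndufa8, while the difference stayed positive under each.

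The other complex I calls were smaller, between 0.34 and 0.45: Ndufaf3, Ndufb5, Ndufs4, Ndufs6 and Ndufb10. Ndufs4 and Ndufs6, whose promoters hold the YY1 match, had differences of 0.43 and 0.36 (adjusted p = 0.0253 and 0.0313, limma). The match was in 2 of the 14 called members with a promoter and in 5 of 29 that were tested and not called. Ndufs7, with the same match at the same place as Ndufs4, was not called. Its difference of -0.09 was the 1 negative value in complex I on the brightest probe sets.

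Complex III, which passes electrons from ubiquinol to cytochrome c, had a call for its Rieske iron-sulfur protein, Uqcrfs1. Its signals were 5998.8, 6528.0 and 6008.0 in neurons and 3832.7, 3468.9, 2454.2 and 2887.8 in astrocytes. The log2 difference was 0.95 (SE 0.162, adjusted p = 0.0023, limma), and it ranged from 0.95 to 1.24 over the 3 probe sets of the gene that passed. The core protein Uqcrc2 was 1249.0, 1344.4 and 1388.6 in neurons and 912.9, 988.6, 847.4 and 694.1 in astrocytes, with a difference of 0.54 (SE 0.108, adjusted p = 0.0051, limma). Neither gene had overlapping arrays. Uqcr11, the third measured gene of the complex, had a difference of 0.25 that did not pass (adjusted p = 0.1123, limma).

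Complex IV, cytochrome c oxidase, has several subunits that exist as tissue isoforms, and these are given together with Cox5a and Cox5b, which are different subunits of the enzyme. Cox4i1, the widespread isoform of subunit 4, was 5858.5, 5261.3 and 8105.2 in neurons and 7549.0, 8933.1, 8136.0 and 10024.3 in astrocytes. Its neuron array at 10 µg/ml lay within the astrocyte range, and the negative difference of -0.38 (95% interval -0.75 to -0.01) did not pass (adjusted p = 0.0911, limma). Without the neuron array at 10 µg/ml the difference was -0.56 and was called. Dimmer Cox4i1 probe sets above the filter had differences of -0.16 (adjusted p = 0.4909, limma) and -0.64 (adjusted p = 0.0232, limma). The last of these was a call lower in neurons that the count by brightest probe set leaves out. Cox4i2, the isoform known for its induction by low oxygen, was 456.1, 395.6 and 599.8 in neurons and 584.7, 438.1, 574.8 and 209.3 in astrocytes, with overlap and a difference of -0.15 (interval -0.60 to 0.30).

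Both isoforms of subunit 6a were called higher in neurons on their brightest probe sets. The further probe sets of Cox6a2 did not pass the filter, with signals of 14 to 74.2 and of 1.6 to 3.6. Cox6a1, the liver-type isoform found in most tissues, was 9901.8, 9841.8 and 11186.6 in neurons and 8152.2, 8685.2, 7474.9 and 9403.7 in astrocytes, a difference of 0.35 (SE 0.0898, adjusted p = 0.0160, limma). Cox6a2, the heart and muscle isoform, was 178.2, 187.7 and 163.4 in neurons and 149.9, 112.3, 112.8 and 109.3 in astrocytes, a difference of 0.51 (adjusted p = 0.0482, limma). The call ended under 6 of 15 alternatives for Cox6a1, the mean over probe sets among them, and under 10 of 13 for Cox6a2, quantile normalization and no floor among them. The third call of the complex was Cox6b1, with a difference of 0.31 (adjusted p = 0.0108, limma). It was 8391.0, 7985.4 and 8414.9 in neurons and 6891.7, 6770.3, 6389.7 and 5927.2 in astrocytes.

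The remaining genes of this set were not called. Cox5b was 4435.2, 4173.8 and 5021.1 in neurons and 5049.2, 4119.5, 4046.6 and 5533.3 in astrocytes (difference 0.05, interval -0.23 to 0.32). Cox8a was 15310.2, 14610.9 and 16253.1 in neurons and 15498.6, 16033.2, 12744.4 and 15459.6 in astrocytes (difference 0.07, interval -0.17 to 0.30). Cox7a2l, a relative of subunit 7a that acts in the joining of complexes III and IV, was 3313.2, 3329.5 and 3593.0 in neurons and 4121.7, 3333.4, 3779.1 and 4342.6 in astrocytes (difference -0.13, interval -0.37 to 0.11). The intervals describe only the spread between these arrays, which differ in dose, so a difference over separate cultures could lie outside them. Cox5a (42.4, 39.1 and 55.8 in neurons, 37.4, 7.8, 47.8 and 49.1 in astrocytes) and Cox8b (29.5, 32.0 and 22.0 in neurons, 50.1, 17.3, 36.6 and 39.3 in astrocytes) were too dim to be tested. For Cox5a this holds for its single-symbol probe set only, as a further one carried several symbols and was left out.

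In complex V, the subunits Atp5f1a (alpha) and Atp5f1c (gamma) were called, with differences of 0.33 and 0.32 (adjusted p = 0.0166 and 0.0472, limma). The Atp5f1c call ended under 8 of 15 alternatives. Atp5f1b, the catalytic beta subunit, had 0.17 and did not pass (adjusted p = 0.0834, limma). In complex II, Sdha, the flavoprotein that oxidizes succinate, had a difference of -0.22 (interval -0.59 to 0.14) and Sdhaf2 one of -0.18. On the brightest probe sets all 10 complex V genes had a positive difference, and 7 of 10 did in complex IV.

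The count of 16 calls moved with single arrays. It was 5 without the untreated neuron array, 9 without either treated neuron array, 8 without the astrocyte array at 1 µg/ml, 10 without that at 10 µg/ml and 20 without the untreated astrocyte array. The 9 without the neuron array at 10 µg/ml included 1 lower call, Cox4i1. It was 7 with dose as a block and 7 with the astrocyte array at 100 µg/ml added. Markers of other cell types moved with this comparison as given above, and their part in it was not tested. Fewer cells of a type and less RNA per cell cannot be told apart in these cultures.

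Taken dose by dose, the members' difference between the cell types was smallest on the untreated arrays. Between the untreated arrays the members were close, with a median of 0.05, 28 higher and 22 lower in neurons, against a median of 0.03 over all probe sets. At 1 µg/ml the median was 0.24, with 39 higher and 11 lower, against 0.08 over all. At 10 µg/ml it was 0.41, with 45 higher and 5 lower, against 0.12 over all. The difference was larger at 10 than at 0 µg/ml for 44 of 50 members, against 57.1% of all probe sets, and it was larger at each step from 0 to 1 to 10 µg/ml for 22. The test of the slopes of the cell types, given further on, called no member.

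At 1.5-fold or more, 2, 7 and 13 members were higher in neurons at 0, 1 and 10 µg/ml, against 21.8%, 23.8% and 25% of all probe sets. Members at 1.5-fold lower numbered 0, 1 and 0, against 17.6%, 18% and 19.2%. After quantile normalization, which forces the arrays to 1 distribution, the members' medians were 0.06, 0.28 and 0.41. Each value rests on 1 array per cell type and dose and has no error. Over the same doses the neuronal marker sum was 20658.3, 19746.5 and 20838.4 in neurons and 1948, 1980.5 and 1363.1 in astrocytes. The microglial sum in astrocytes was 10864.5, 12746 and 13042.5, and the fibroblast sum there was 59635, 52927.1 and 46651.1. The part of these in the pattern was not tested.

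**Figure D2:**
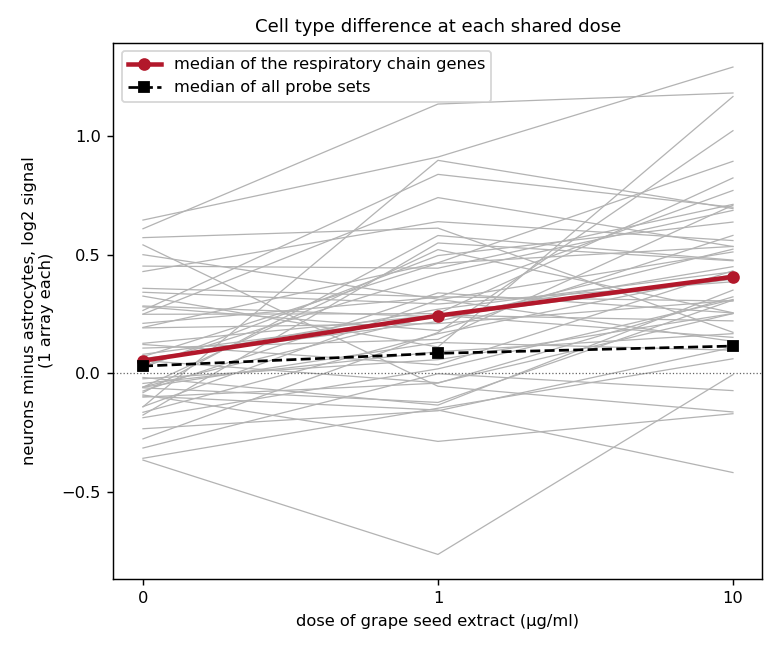
Difference between the neuron and the astrocyte array (log2 signal, y axis) at each dose that both cell types received (x axis, µg/ml). Grey lines are the 50 respiratory chain genes, the red line their median (0.05, 0.24 and 0.41) and the dashed black line the median of all probe sets (0.03, 0.08 and 0.12). The red line moves away from the black one from 0 to 10 µg/ml.

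The second comparison set each treated array against the untreated one from the same kind of culture, and asked how the genes differed after treatment. All comparisons within a cell type share that untreated array, so they are not independent of each other, and the values by dose above come from the same arrays. In neurons at 1 µg/ml the members were spread evenly, with 23 higher and 27 lower and a median of -0.01 against 0.00 over all probe sets. No member was 1.5-fold higher or lower there, against 1.86% and 1.73% of all probe sets. At 10 µg/ml 37 members were higher and 13 lower, with a median of 0.11 against -0.01 over all, where 48% were higher. No member reached 1.5-fold there either, against 1.46% of all probe sets higher and 3.5% lower.

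The largest positive values in neurons at 10 µg/ml were those of Cox7b (0.55), Cox4i1 (0.47) and Ndufb6 (0.43). Cox7b, a small subunit of complex IV, had neuron signals of 816.7, 810.1 and 1199.2 from 0 to 10 µg/ml, so the 10 µg/ml array stood alone. Ndufb6, an accessory subunit of complex I, was 1150.3, 1196.6 and 1549.0 in neurons and 1124.9, 894.6, 962.1 and 1153.7 in astrocytes. A further probe set of Ndufb6 above the filter did not share the rise, at 664.8, 657.8 and 654.8 in neurons. Cox4i1 likewise had its highest neuron signal at 10 µg/ml. The largest negative values were those of Sdha (-0.42), Atp5f1d (-0.28) and Atp5f1c (-0.19). Sdha was 2205.2, 2419.5 and 1650.0 in neurons and 2357.0, 2693.6, 2205.3 and 1828.3 in astrocytes. Atp5f1c was 4811.9, 5074.3 and 4223.2 in neurons. For both genes the 1 µg/ml neuron array was the highest and the 10 µg/ml neuron array the lowest. In complex IV 9 of 10 members and in complex I 19 of 25 were higher at 10 µg/ml, while both complex II members were lower.

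**Figure D3:**
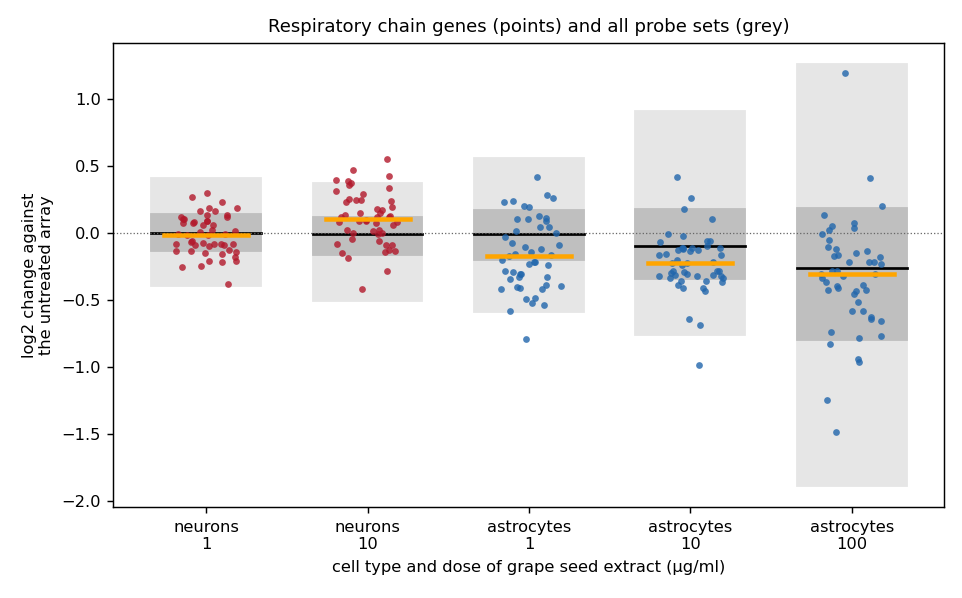
Log2 change against the untreated array of the same cell type (y axis) for each treated array (x axis, µg/ml). Points are the respiratory chain genes that passed the filter (50 in neurons, 49 in astrocytes) with their median as an orange line, and grey boxes span the 5th to 95th (light) and 25th to 75th (dark) percentiles of all probe sets around their median (black). The orange line lies above the black one in neurons at 10 µg/ml (0.11 against -0.01) and below it in astrocytes at 1 and 10 µg/ml (-0.17 and -0.23 against -0.01 and -0.10). At 100 µg/ml the lines are closer, at -0.31 and -0.26.

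In astrocytes the members lay lower on the treated arrays. At 1 µg/ml 33 of 49 were lower, with a median of -0.17 against -0.01 over all, where 51.2% were lower. At 10 µg/ml 45 of 49 were lower, with a median of -0.23 against -0.10 over all, where 60.3% were lower. Against the brightest probe sets alone, those with a mean above the 75th percentile of signals (435.7), 42 of 46 members were lower at 10 µg/ml against 58%. At 100 µg/ml 41 of 49 were lower, with a median of -0.31 against -0.26 over all, where 65.9% were lower. With changes taken relative to the median of all probe sets, the members' median at 100 µg/ml was -0.05, close to that background. Against the brightest probe sets alone, 38 of 46 members were lower at 100 µg/ml against 61%, with medians of -0.29 and -0.14. Quantile normalization moved the median of all probe sets there to -0.09 and their share lower to 54.8%, with the members' median at -0.29 and 42 of 49 lower.

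At 1.5-fold or more, 1 member was lower and 0 higher at 1 µg/ml, against 5.01% and 4.56% of all probe sets. That member was Ndufa3, at -0.79. At 10 µg/ml 3 were lower and 0 higher, against 9.97% and 9.5%. At 100 µg/ml 11 were lower and 1 higher, against 33.7% and 11.9%, so large changes were no more frequent among the members than on the array as a whole. The shift of the members was one of many small differences in the same direction. Members lower on all 3 treated astrocyte arrays numbered 29 of 49, against 31.6% of all probe sets, and 3 were higher on all 3, against 15.6%. The 100 µg/ml array was the lowest of the 4 for 27 of 49, against 50.4% of all.

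By complex, 24 of 25 complex I genes were lower in astrocytes at 10 µg/ml and 22 of 25 at 100 µg/ml, with medians of -0.30 and -0.32. All 3 complex III genes were lower at both doses, with medians of -0.30 and -0.40. In complex IV 8 of 9 were lower at 10 µg/ml and 5 of 9 at 100 µg/ml, with medians of -0.13 and -0.00. In complex V 8 of 10 were lower at 10 µg/ml and 9 of 10 at 100 µg/ml, with medians of -0.14 and -0.24. Both complex II members were higher in astrocytes at 1 µg/ml and lower at 10 and 100 µg/ml. Whether the complexes differ was not tested.

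**Figure D4:**
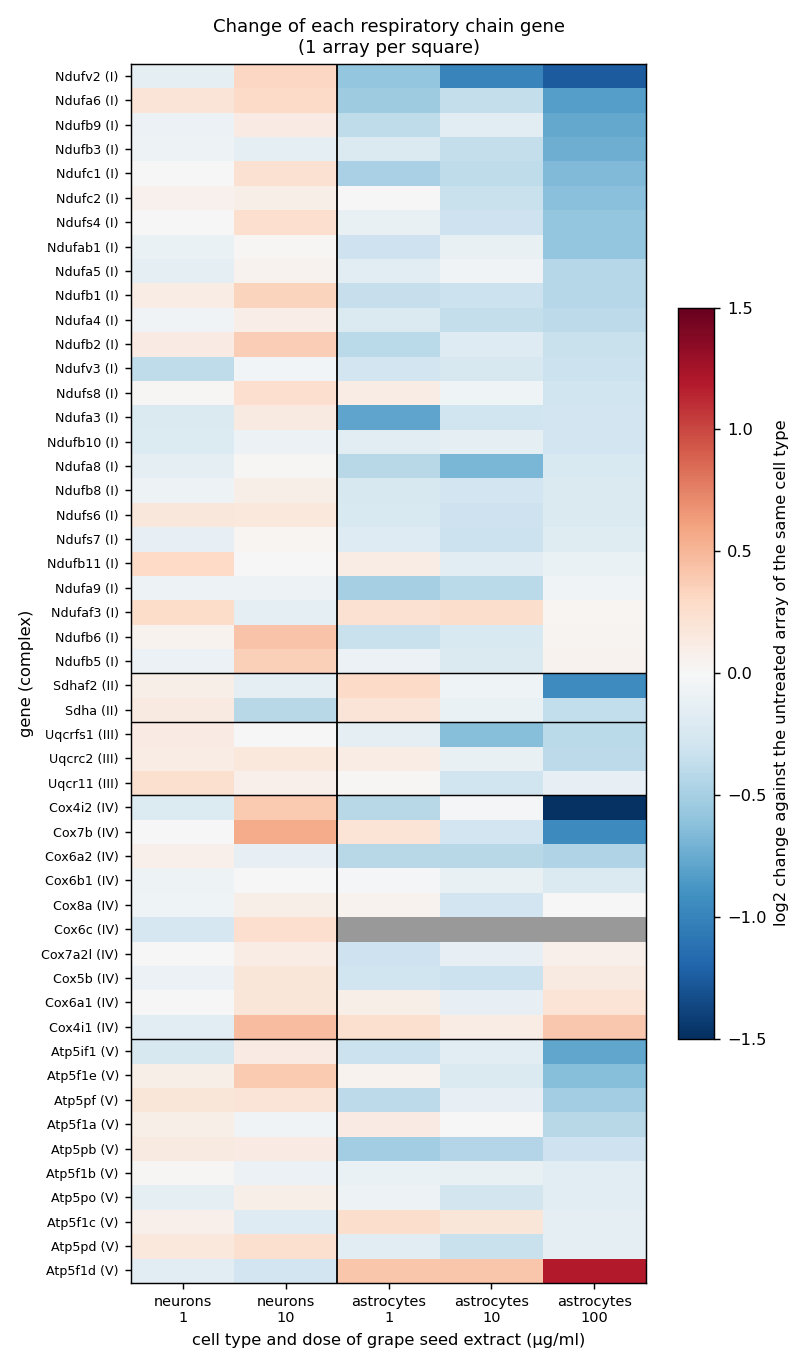
Log2 change against the untreated array of the same cell type (colour, from -1.5 in blue to 1.5 in red) for each respiratory chain gene that passed the filter (rows, grouped by complex and sorted within it by the change in astrocytes at 100 µg/ml) on each treated array (columns, µg/ml). Cox6c is grey in astrocytes because it did not pass there. The astrocyte columns are mostly blue, with 45 of 49 genes below 0 at 10 µg/ml, and the neuron column at 10 µg/ml is mostly red, with 37 of 50 above 0. Atp5f1d stands out in red at 100 µg/ml.

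Ndufv2, the iron-sulfur subunit of the NADH-oxidizing module of complex I, was 3592.5, 2397.6, 1813.9 and 1513.4 in astrocytes at 0, 1, 10 and 100 µg/ml. The signal was lower at each step, by 0.99 at 10 µg/ml and 1.25 at 100 µg/ml relative to the untreated array on the log2 scale. In neurons it was 2966.0, 2701.4 and 3686.6, highest at 10 µg/ml. Ndufa6, an accessory subunit with the YY1 and ETS matches, was 1437.5, 991.1, 1120.7 and 811.6 in astrocytes and 1272.5, 1450.8 and 1557.5 in neurons. All its treated astrocyte arrays were below the untreated one and both its treated neuron arrays above it.

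Cox7b was 651.7, 750.1, 534.0 and 335.2 in astrocytes, lowest at 100 µg/ml with a change of -0.96. Cox4i2 was lowest at 100 µg/ml as well, with a change of -1.48, and its array at 10 µg/ml was close to the untreated one. Sdhaf2, which attaches the flavin to Sdha, was 928.6, 1133.1, 886.3 and 484.3 in astrocytes, with a change of -0.94 at 100 µg/ml only. Its neuron signals were 871.8, 928.7 and 787.6. The other members at 1.5-fold lower at 100 µg/ml were Ndufa6, Atp5if1, Ndufb9, Ndufb3, Ndufc1, Atp5f1e and Ndufc2, between -0.82 and -0.63.

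Atp5f1d, the delta subunit in the central stalk of ATP synthase, went the other way. Its astrocyte signals were 2206.7, 2954.9, 2955.8 and 5051.8, higher than untreated on every treated array, with a log2 difference of 1.19 at 100 µg/ml. Its neuron signals were 3212.2, 2845.3 and 2640.0, lower at each step. A second probe set of the gene gave 1772.3, 2144.4, 2277.7 and 3483.9 in astrocytes and 2469.8, 2415.7 and 2168.5 in neurons, the same order of arrays in both cell types, with a change of 0.98 at 100 µg/ml. Its stalk partner Atp5f1e, the epsilon subunit, was 2758.9, 2854.9, 2378.0 and 1768.2 in astrocytes, with the lowest signal at 100 µg/ml.

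The next largest positive values at 100 µg/ml were those of complex IV genes, Cox4i1 (0.41), Cox6a1 (0.21), Cox5b (0.13) and Cox7a2l (0.08), the last 2 of which were below 0 after quantile normalization (-0.01 and -0.00). Cox4i1 and Cox4i2 thus had opposite signs at 100 µg/ml, 0.41 and -1.48. At 10 µg/ml the positive members in astrocytes were Atp5f1d (0.42), Ndufaf3 (0.27), Atp5f1c (0.18) and Cox4i1 (0.11). The signals of Ndufaf3 were 520.1, 610.2, 625.1 and 529.3 in astrocytes and 773.3, 932.8 and 704.7 in neurons. For Atp5f1c they were 3401.5, 4085.8, 3846.4 and 3070.8 in astrocytes. The most negative values at 10 µg/ml were those of Ndufv2 (-0.99), Ndufa8 (-0.68) and Uqcrfs1 (-0.64).

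**Figure D5:**
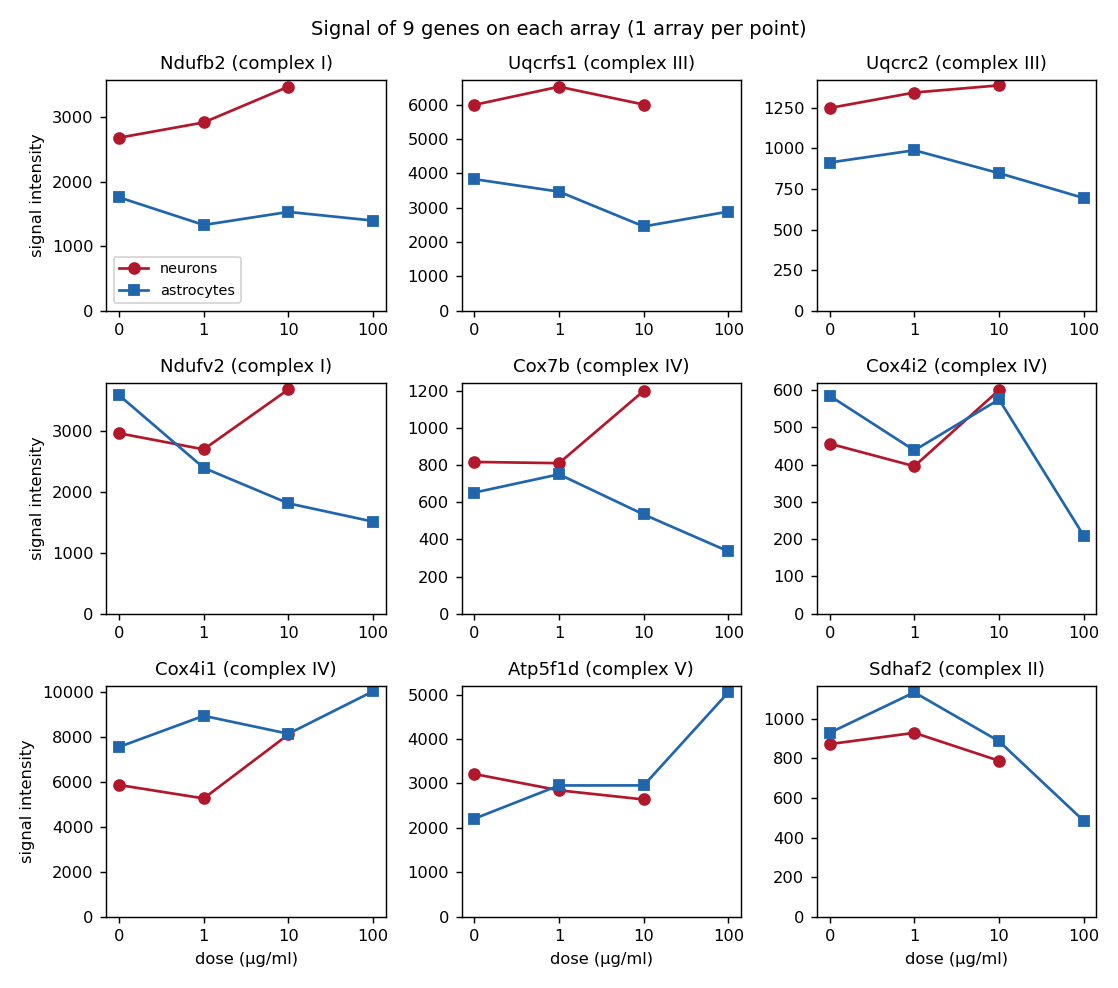
Signal intensity (y axis, linear scale from 0) of 9 respiratory chain genes at each dose of the extract (x axis, µg/ml), with neurons in red and astrocytes in blue and 1 array per point. Ndufb2, Uqcrfs1 and Uqcrc2 show neuron arrays above astrocyte arrays at every dose. Ndufv2 in astrocytes goes from 3592.5 to 1513.4 and Atp5f1d from 2206.7 to 5051.8.

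Several genes had more than 1 probe set, and these did not always have the same sign. Of 21 members with more than 1 probe set above the filter, all had the same sign in 18 for the cell type difference, in 15 at 10 µg/ml in astrocytes and in 15 at 100 µg/ml. For the cell type difference the signs were mixed in Atp5if1 (-0.24 to 0.10), Ndufb8 (-0.04 to 0.26) and Ndufv3 (-0.30 to 0.09). In astrocytes the probe sets of Uqcrfs1 ranged from -0.64 to 0.13 at 10 µg/ml and from -0.41 to 0.03 at 100 µg/ml. Those of Ndufaf3 ranged from -0.27 to 0.27 and those of Cox4i1 from -0.21 to 0.21 at 10 µg/ml, so the positive values given for these genes there were not shared by all their probe sets. At 100 µg/ml Cox4i1 was positive on all 3 of its probe sets (0.41 to 0.57), while those of Cox7a2l ranged from -0.25 to 0.08.

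A dose trend was fitted for each cell type over the 7 arrays (limma), with its slope taken per unit of log10(dose + 1), the dose being in µg/ml. In astrocytes 6 members fell and 1 rose with dose at an adjusted p under 0.05, against 15.5% of all probe sets falling and 5.03% rising. The members' median slope was -0.11 and that of all probe sets -0.13, so the members were close to the background. After quantile normalization 4 members fell and 1 rose, and over all probe sets 553 fell and 298 rose against 732 and 237. Atp5f1d rose by 0.53 per unit of slope (SE 0.107, adjusted p = 0.0215). Ndufv2 had a slope of -0.56 (adjusted p = 0.0272), Cox7b -0.54 (0.0311), Sdhaf2 -0.53 (0.0470), Atp5f1e -0.34 (0.0332), Ndufb3 -0.34 (0.0332) and Ndufc2 -0.34 (0.0264). Ndufb3 and Ndufc2 are accessory subunits of the membrane arm of complex I.

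These trends rest on few arrays. The count of 7 was 0 without the astrocyte array at 100 µg/ml, 0 without that at 1 µg/ml, 3 without the untreated one, 11 without that at 10 µg/ml and 0 without any 1 of the neuron arrays. All 6 marker sums were lower on the astrocyte array at 100 µg/ml than on the untreated one. They were 1948 and 975.5 for neuronal markers, 10864.5 and 6445.6 for microglial ones, 43714.3 and 39327.8 for astrocytic ones and 10449.3 and 8706.6 for the oligodendrocyte lineage. For fibroblasts and meninges they were 59635 and 53628, and for endothelial cells 243.4 and 207.5. Of the 9 astrocytic markers tested, 2 fell with dose, Slc1a3 and Aqp4, and 0 rose (15.5% and 5.03% of all). Of the 6 microglial ones tested, 2 fell and 1 rose, Fcgr2b, from 248.3 untreated to 1161.7 at 100 µg/ml. The sums hide such opposite changes within a list. In the oligodendrocyte lineage Pdgfra was 3730.1 untreated and 1231.8 at 100 µg/ml, while Mbp was 3895.3 and 5222.2. The part of these in the trends was not tested.

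In neurons no member had a dose trend at an adjusted p under 0.05 (limma), nor had any probe set (0%). At an unadjusted p under 0.05 there was 1 member, against 90 probe sets or 1.91% of all. The slopes of the cell types differed for no member and for 0.0212% of all probe sets (limma). At an unadjusted p under 0.05 there were 6 members, against 11.1% of all. The members' median difference of slopes, neurons minus astrocytes, was 0.20, against 0.13 over all, and 44 of 50 were positive against 60.9%.

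At 10 µg/ml 35 of 49 members were higher than untreated in neurons and lower in astrocytes, against 31.9% of all probe sets, and 3 were the reverse, against 22.3%. These comparisons use different arrays in each cell type. With both the 1 and the 10 µg/ml array required, 10 members were higher in neurons and lower in astrocytes, against 12.2% of all, and Atp5f1d was the reverse, a pattern of 8.86% of all.

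Genes around the chain were taken from lists of the same pathway. Their counts stand beside the shares over all probe sets given above, 25% higher and 19.3% lower in neurons and, for the astrocyte trend, 5.03% rising and 15.5% falling, and the lists are short. Of 24 genes for assembly of the chain, 2 were measured above the filter, and Uqcc2, a factor for complex III, was higher in neurons by 0.65 (adjusted p = 0.0023, limma). Among 6 other electron carriers and dehydrogenases, Cyc1, the cytochrome c1 of complex III, was called higher in neurons by 0.56 (adjusted p = 0.0030, limma). In astrocytes 3 of the 6 fell with dose (15.5% of all), and Etfdh and Coq3 changed most at 100 µg/ml, by -1.96 and -1.28. Etfdh passes electrons from fatty acid oxidation to ubiquinone, and Coq3 acts in ubiquinone synthesis.

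Of 12 genes of pyruvate dehydrogenase and the citric acid cycle, 4 were higher in neurons and 0 lower (25% and 19.3% of all). These were Pc, pyruvate carboxylase (1.03), Mpc1, the mitochondrial pyruvate carrier (0.71), Pdhx (0.58) and Suclg1 (0.39). In astrocytes 3 fell with dose, Pdha1, Idh2 and Dlst, and 0 rose. The list's medians were -0.14 at 10 and -0.27 at 100 µg/ml, close to those of all probe sets.

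Of 13 mitochondrial carriers, pores and creatine kinases, 4 were higher in neurons and 2 lower (25% and 19.3% of all), the higher ones including the creatine kinases Ckmt1 (1.82) and Ckb (0.50). Tspo, the translocator protein of the outer membrane, was lower by 1.63 in neurons (log2 difference -1.63), and Ucp2 also lower (-0.35). Slc25a4, the ADP/ATP exchanger, was the 1 gene of this list to fall with dose in astrocytes. Of 4 regulators of mitochondrial gene expression, Esrra was lower in neurons (-0.81), and at 100 µg/ml in astrocytes Polg2 had a change of 2.62 and Ssbp1 of -2.23, both called for the trend. Polg2 is part of the mitochondrial DNA polymerase and Ssbp1 binds single-stranded mitochondrial DNA. Their astrocyte signals from 0 to 100 µg/ml were 82.8, 90.7, 104.9 and 510.2 for Polg2 and 547.6, 543.9, 464.6 and 116.4 for Ssbp1. For both genes the 100 µg/ml array stood apart from the others.

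Of 10 genes at the fork between pyruvate oxidation and lactate, 1 was higher in neurons and 2 lower (25% and 19.3% of all), Hk1 (0.64) against Pdk2 (-0.78) and Slc2a1 (-0.41). In astrocytes 3 rose with dose and 1 fell (5.03% and 15.5% of all). Those that rose were Pdp2, a pyruvate dehydrogenase phosphatase, with signals of 174.5, 139.2, 146.8 and 3036.9, Slc16a3, a lactate transporter, with 114.3, 93.2, 262.0 and 412.4, and Slc2a1, the glucose transporter GLUT1, with 1563.7, 1516.3, 1955.6 and 4700.2. Pdk2, a kinase that shuts off pyruvate dehydrogenase, fell, with 1766.5, 1784.3, 1589.1 and 580.8. For Pdp2 and Pdk2 the 100 µg/ml array alone stood apart.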

How the data were processed

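The values are signal intensities as deposited by the authors, on a linear scale, computed per array with GCOS per the submitters' processing notes, from 100 ng of total RNA per the labels. Its version and parameters were not given in the sources used here. Of 8799 probe sets, 59 controls were left out. Gene symbols came from the platform annotation: 7006 probe sets had 1 symbol, 308 several and 1426 none, and 6985 of the IDs were found in RefSeq. Log2 was taken after setting signals below the 25th percentile (17.9) to that floor. The scale was kept.

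Neurons and astrocytes were compared over 3 arrays each at shared doses (4 residual degrees of freedom), because 100 µg/ml went to astrocytes only. The arrays of a cell type differ in dose, so their spread holds the dose effect. Dose trends used 7 arrays (3 residual degrees of freedom). The tool was limma 3.58.1 (lmFit and eBayes, trended variance prior, R 4.3.3), with two-sided tests, Benjamini-Hochberg adjustment over 4709 probe sets and a threshold of 0.05. Changes against the untreated array used 4453 probe sets in neurons and 4252 in astrocytes. The number of arrays limits the precision. The calculation was tested on simulated data. The members and lists were chosen with earlier results of these data known.

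Values on every array are given for the 6 called members with the largest cell type difference each way, the 5 each way with the largest change in astrocytes at 100 µg/ml, the 3 each way at 10 µg/ml in each cell type, and isoform genes. From the lists, called genes and the 2 largest changes at 100 µg/ml could be named. Atp5f1e and the other genes with a called dose trend that this rule does not cover were named after their values were seen.

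Alternatives were quantile normalization, no floor, the mean over probe sets, a filter at the 75th percentile or none, a constant prior, all 7 arrays, dose as a block, other dose scales, each cell type alone, shared doses, centring, all lower doses as reference, 2-fold calls and leaving out each array. Promoters came from RefSeq (GRCr8). Figures used matplotlib 3.10.9.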

Additional observations from a re-analysis of the deposited data

Results flagged for a closer look

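For 6 of the genes given array by array, every treated neuron array and the treated astrocyte arrays at the same doses lay on opposite sides of their untreated arrays. Some of the neuron changes were very small, 0.0022 for Uqcrfs1 at 10 µg/ml and 0.0071 for Cox7a2l at 1 µg/ml. The difference between the cell types was not tested by replication, since each change comes from 1 array per dose. The change at 10 µg/ml in neurons minus that in astrocytes was 0.65 for Ndufa6 and 0.57 for Ndufb2. It was 0.65 for Uqcrfs1 and 0.65 for Ndufb6, 0.24 for Cox7a2l and -0.70 for Atp5f1d. The signs for Uqcrfs1 and Cox7a2l in astrocytes at 10 µg/ml were not shared by all their probe sets. In neurons at 1 and 10 µg/ml a further Ndufb6 probe set changed by -0.02 and -0.02, and a further Cox7a2l one by -0.50 and -0.26. For Ndufb6, Cox7a2l and Uqcrfs1 no other probe set above the filter showed the opposite sides, while that of Atp5f1d did. In the limma test of the slopes, which uses all 7 arrays, none of the 6 passed, with adjusted p-values from 0.3947 (Atp5f1d) to 0.978 (Cox7a2l).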

How the results depend on the processing

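The count of members called between cell types (16) was 7 without the filter, 8 with a constant variance prior, 7 with all 7 arrays, 7 with dose as a block and 5 to 20 when each array was left out. The median difference was 0.0535 on the untreated arrays only, and 0.21 to 0.33 with an array left out. The count for the astrocyte trend (7) was 0 without the filter, with ranked doses, with each cell type alone and with shared doses only, 3 with a constant prior, and 0 to 11 with an array left out. Members past 1.5-fold without the filter numbered 1 for neurons (10 µg/ml), 6 for astrocytes at 1 µg/ml and 5 for astrocytes at 10 µg/ml. Centred on the median change, the astrocyte median at 100 µg/ml was -0.0481 with 6 members past 1.5-fold. With all lower doses as reference it was -0.17 with 7 members, and 1 member at 10 µg/ml. At 2-fold, 0, 0 and 3 members were past the limit in astrocytes at 1, 10 and 100 µg/ml. The cause of these moves was not tested. Of the values for named genes, 714 stayed on their side of the threshold or moved little, 95 were no longer called, 5 became called, 76 moved further, and no called value changed sign. Of these 890 values, 56 had the opposite sign to the value given, for 30 of 69 results. On the untreated arrays only, the cell type difference was -0.28 for Ndufv2 and -0.18 for Ndufa6, and with all 7 arrays it was 0.19 for Cox4i2. The labels give no replicate numbers, so the only paired fit was that with dose as a block. Array signals near background limit Cox6c and the members that were not tested.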
